A study of Mus musculus with 12 samples.

Results

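The H3K27ac peaks at the promoters of protein-coding genes in mouse microglia are described here, in WT mice and in mice without the fractalkine receptor gene *Cx3cr1*. A peak was counted as a promoter peak where its centre lay at most 1000 bp from the nearest transcription start site (TSS), that site belonged to a protein-coding gene, and the peak was less than 10000 bp wide. This rule took 9286 of the 55862 H3K27ac peaks (16.6%), annotated to 8914 genes, and it used no read count. WT microglia came from *Cx3cr1*+/+ littermates and KO microglia from *Cx3cr1* eGFP/eGFP mice, in which both copies of the gene are disrupted by a green fluorescent protein cassette in every cell type, so that effects outside microglia are part of the comparison. All mice were 2 mo old and on a C57BL/6J background, the cells were sorted as CD11b+CD45lo, and each sample pooled 3 mice of one sex. By the labels, each genotype had 1 female and 1 male pool for H3K27ac (n = 2 against 2) and the same for Rpb2, a core subunit of RNA polymerase II. The Rpb2 library labelled WT female held reads at Y-linked genes, as given below. The genotype p-values below set the difference between the genotypes against the spread between such pools.

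H3K27ac is the acetylated form of lysine 27 on histone H3. It is placed by the acetyltransferases p300 and CBP, removed by histone deacetylases, and found on nucleosomes that flank the start sites of active genes and on active enhancers. Most broadly used promoters carry a CpG island and a compact acetylated region around the start site, whereas genes that define a cell type often lie within wide acetylated domains that join promoter and enhancers. In microglia, such domains are known from lineage genes bound by PU.1, a factor of the ETS family.

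The 4 H3K27ac libraries held between 10395804 reads (WT male) and 21134403 reads (WT female). The WT female library stood apart, since 15.9% of its reads lay in peaks against 61.1% to 65.3% in the other libraries, and the promoter peaks took 4.40% of its reads against 15.2% to 17.8%. Of the reads inside peaks, however, the promoter peaks took a similar share in all 4 libraries, between 24.7% (WT male) and 27.7% (WT female). Levels below are therefore given as TMM-scaled CPM, read counts set relative to the reads in peaks of each library, divided by the peak width in kb where genes are compared. The largest peak over *Cx3cr1* itself was 47717 bp wide, so it was no promoter peak by the rule, and it held 1071 and 1697 CPM in the WT female and male pools and 1008 and 1047 CPM in the KO pools. The counts cover the whole domain and not the replaced sequence, so these values do not check the genotype labels.

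Promoters of 4 genes on which the results below turn show the range of sequence under these peaks. *Brd2*, a reader of acetylated histones, had the highest level of all promoter peaks, *Mef2a*, a lineage factor, was the only microglia identity gene with a promoter peak, *Nudt4*, a nudix hydrolase, had the lowest p among peaks higher in KO, and *Pex26*, a peroxisome biogenesis factor, had the lowest p among peaks lower in KO. Each line gives the 250 bases before the RefSeq start site (GRCm38.p6), 5′ to 3′ on the strand of the gene, with capitals for matches on either strand to 9 short motifs.
*Brd2*, minus strand, chr17:34119901-34120150: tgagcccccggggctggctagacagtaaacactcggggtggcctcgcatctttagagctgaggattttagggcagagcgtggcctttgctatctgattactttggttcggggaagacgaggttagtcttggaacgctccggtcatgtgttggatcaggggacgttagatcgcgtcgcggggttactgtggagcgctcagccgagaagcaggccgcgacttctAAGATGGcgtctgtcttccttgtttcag
*Mef2a*, minus strand, chr7:67372859-67373108: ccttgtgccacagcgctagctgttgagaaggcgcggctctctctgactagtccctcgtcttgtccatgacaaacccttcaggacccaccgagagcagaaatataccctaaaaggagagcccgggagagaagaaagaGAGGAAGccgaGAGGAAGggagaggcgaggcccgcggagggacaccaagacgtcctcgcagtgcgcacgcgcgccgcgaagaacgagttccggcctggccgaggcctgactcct
*Nudt4*, minus strand, chr10:95564147-95564396: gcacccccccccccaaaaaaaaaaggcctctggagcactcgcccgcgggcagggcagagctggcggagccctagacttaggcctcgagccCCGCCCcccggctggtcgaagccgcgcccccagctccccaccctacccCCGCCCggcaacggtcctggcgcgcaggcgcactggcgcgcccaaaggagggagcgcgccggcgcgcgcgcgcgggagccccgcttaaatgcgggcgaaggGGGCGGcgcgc
*Pex26*, plus strand, chr6:121183417-121183666: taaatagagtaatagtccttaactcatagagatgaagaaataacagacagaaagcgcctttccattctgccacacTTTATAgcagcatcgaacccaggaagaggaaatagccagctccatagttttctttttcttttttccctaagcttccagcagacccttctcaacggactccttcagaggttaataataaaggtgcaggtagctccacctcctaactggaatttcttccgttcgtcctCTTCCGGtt
The capitals mark 1 YY1 site (AAGATGG) in *Brd2*, 2 PU.1 sites (GAGGAAG) in *Mef2a*, 3 SP1 boxes (GGGCGG) in *Nudt4*, and 1 TATA box (TATAAA) and 1 ETS site (CCGGAAG) in *Pex26*. The other motifs searched were the CCAAT box (CCAAT), the NRF1 core (GCATGCG), the AP-1 site (TGANTCA) and the CRE site (TGACGTC). The stretch held 33 CpG dinucleotides in *Nudt4*, 21 in *Mef2a*, 18 in *Brd2* and 6 in *Pex26*. The *Pex26* start site lay outside every H3K27ac peak, next to the edge of a promoter peak centred 668 bp downstream. *Clic1* and *Gorasp1*, also among the highest or lowest values, had an annotated untranslated region in this stretch, and *Tcim* is named only.

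Promoter peaks were wider and stronger than most other peaks. Their median width was 1783.5 bp (quartiles 1201 and 2550 bp, range 501 to 9995 bp), against a median of 501 bp for intronic and for intergenic peaks. Their median level was 10.9 CPM per kb, with the 5th and 95th percentiles at 3.03 and 23.3 CPM per kb. By library, the median promoter level was 11.9 (WT female), 9.84 (WT male), 11.1 (KO female) and 10.7 CPM per kb (KO male). The corresponding medians of intronic peaks were 6.95, 3.14, 3.34 and 3.36 CPM per kb, and those of intergenic peaks were 8.23, 1.59, 1.97 and 2.08 CPM per kb. The promoter median was thus higher than the intronic median in 4 of 4 libraries, by 1.71 to 3.34 times, and higher than the intergenic median in 4 of 4, by 1.45 to 6.18 times, with the smallest ratios in the WT female library. It was lower than the median of the 603 domains of 10 kb or more in 4 of 4 libraries, at 0.461 to 0.783 of their level per kb. An exact two-sided permutation test of each of these differences over the 4 libraries, WT and KO together, gave p = 0.125, the smallest value that 4 pairs allow. Any difference with the same sign in 4 of 4 libraries gives this value, so the test adds nothing to those counts.

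**Figure D1:**
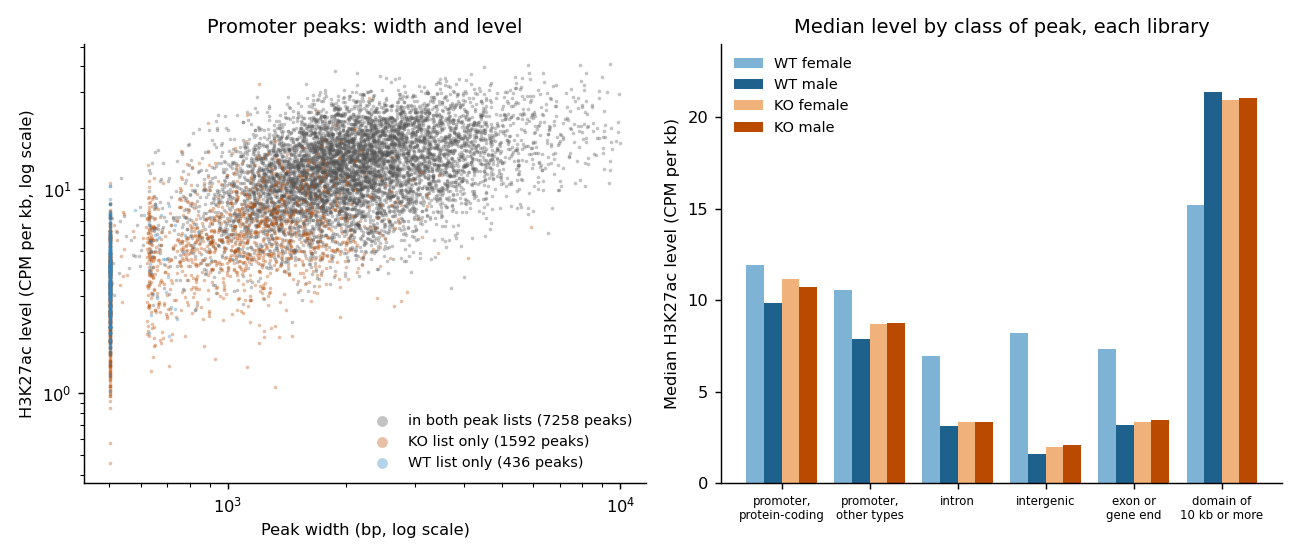
Left, H3K27ac level (CPM per kb, mean of 4 libraries) against peak width for each promoter peak, both on log axes, coloured by the peak list it came from. Right, the median level of each class of peak in each library, as bars from 0. Wider promoter peaks had higher levels. The WT female bars exceed the others in every class but the domains, in the protein-coding promoter class with 11.9 against 9.84 to 11.1 CPM per kb.

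Level per kb was higher in wider peaks, although the measure already divides by width. The 1718 promoter peaks under 1000 bp had a median of 4.31 CPM per kb, the 3706 peaks of 1000 to 2000 bp had 10.4, the 2301 peaks of 2000 to 3000 bp had 13.6, the 1250 peaks of 3000 to 5000 bp had 15.6, and the 311 peaks of 5000 bp or more had 18.7 CPM per kb. The peaks sat around the start site with a shift into the gene. The centre lay within 200 bp of the start site in 5051 peaks (54.4%), downstream of it in 5231 and upstream in 4027. The edges of the rule cut through a continuum. The 204 promoter peaks centred more than 900 bp away had a median level of 7.04 CPM per kb, and the 159 peaks just outside had 6.92. The 21 promoter peaks of 9 to 10 kb had a median of 18.1 CPM per kb, and the 9 peaks of 10 to 11 kb at coding start sites had 19.5.

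The deposited table joined peaks called in WT and in KO pools, and most promoter peaks were in both lists. Both lists held 7258 of the promoter peaks (78.2%), against 67.1% of promoter peaks of other gene types, 30.4% of intronic and 25.3% of intergenic peaks and 100% of the domains of 10 kb or more. These shared promoter peaks had a median width of 2050.5 bp and a median level of 12.7 CPM per kb. Another 1592 promoter peaks were in the KO list alone, with a median level of 4.79 CPM per kb. The 436 promoter peaks in the WT list alone had a median width of 501 bp and median counts of 20 (WT female), 0 (WT male), 2 (KO female) and 0 reads (KO male). WT-only promoter peaks were thus carried by the WT female pool, and 230 of the 436 had no read in the WT male pool. The share of a list in one genotype is no measure of a genotype difference here, since list membership was decided by calls and not by a test.

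Promoter peaks marked the start sites of a minority of coding genes. Of 21864 protein-coding genes in GENCODE, 9359 (42.8%) had a start site inside a promoter peak, 324 (1.48%) inside a domain of 10 kb or more, 1133 (5.18%) inside another peak under 10 kb, and 11048 (50.5%) inside no peak. A promoter peak covered the start site of 1 gene in 7393 cases and of 2 or more genes in 1055 cases (11.4%). In 805 peaks (8.67%) the genes were a divergent pair with start sites within 1000 bp, and there the reads of the 2 promoters cannot be told apart. Peaks over divergent pairs had a median level of 14.3 CPM per kb, against 11.1 CPM per kb over the start site of 1 gene. The 838 promoter peaks that covered no listed start site had a median width of 501 bp and a median level of 3.92 CPM per kb.

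Ribosomal protein, oxidative phosphorylation and proteasome genes were mostly marked by a promoter peak of their own. Under the width limit and annotation of the rule, genes that define microglia almost never were. As background, 40.3% of coding genes had a promoter peak annotated to them. The share was 66 of 72 ribosomal protein genes, 60 of 67 genes of oxidative phosphorylation, 31 of 36 proteasome genes, 271 of 329 Zfp genes, which encode zinc finger proteins, and 36 of 47 histone genes. It was 18 of 20 for interferon response genes, 13 of 18 for genes of writers, erasers and readers of H3K27 marks, 7 of 12 for housekeeping genes often used as references, 31 of 50 for Rab GTPase genes and 155 of 287 for solute carrier genes. It was 12 of 20 for immediate-early genes, 13 of 22 for chemokines and their receptors and 11 of 19 for antigen presentation genes.

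Of 28 microglia identity genes, 22 had their start site in a domain of 10 kb or more, 5 in another peak under 10 kb, and 1, *Mef2a*, in its own promoter peak. The 22 genes shared 19 domains of 10841 to 47717 bp. They included the purinergic receptor gene *P2ry12* (a domain of 47325 bp), *Tmem119* (31141 bp), the PU.1 gene *Spi1* (24222 bp), the transcription factor gene *Sall1* (22295 bp), and the complement genes *C1qa*, *C1qb* and *C1qc*, which lay in 1 domain of 18291 bp. The 5 others were *Olfml3*, *Trem2*, *Aif1*, *Mertk* and *Runx1*, in peaks of 4587 to 9065 bp. The peaks over *Runx1* (9065 bp) and *Aif1* (8885 bp) were centred 71 and 367 bp from a GENCODE start site of the gene. The deposited annotation did not place them within the rule. Promoter H3K27ac by this rule therefore did not measure the genes by which these cells are named, and all 28 had their start site in some H3K27ac peak.

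Markers of other cell types were marked in few cases. None of 10 neuronal genes had a start site in a peak. A promoter peak was found for 1 of 8 astrocyte genes (*Slc1a3*), 3 of 9 oligodendrocyte genes (*Cnp*, *Mbp* and *Mog*), 1 of 7 endothelial genes (*Pecam1*), 1 of 11 neutrophil and monocyte genes (*Plac8*), 2 of 9 lymphocyte genes (*Cd8a* and *Cd79b*), and 2 of 6 perivascular macrophage genes (*Mrc1* and *Pf4*). The start sites of *Kdr* (endothelial), *Cbr2* (perivascular macrophage) and *Ly6g* (neutrophil and monocyte) lay in other peaks under 10 kb. The strongest was *Cnp*, an enzyme gene of myelin, at 21.8, 28.5, 24.4 and 27.4 CPM per kb in the WT female, WT male, KO female and KO male pools, above the promoter median in all 4. The *Cd8a* peak, at the gene of a T cell coreceptor, had 7.89 and 2.78 CPM per kb in the WT and KO female pools and 25.4 and 19.8 CPM per kb in the WT and KO male pools. The 2 male pools were above both female pools there, a difference that had 1 pool per sex and genotype and was not tested.

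**Figure D2:**
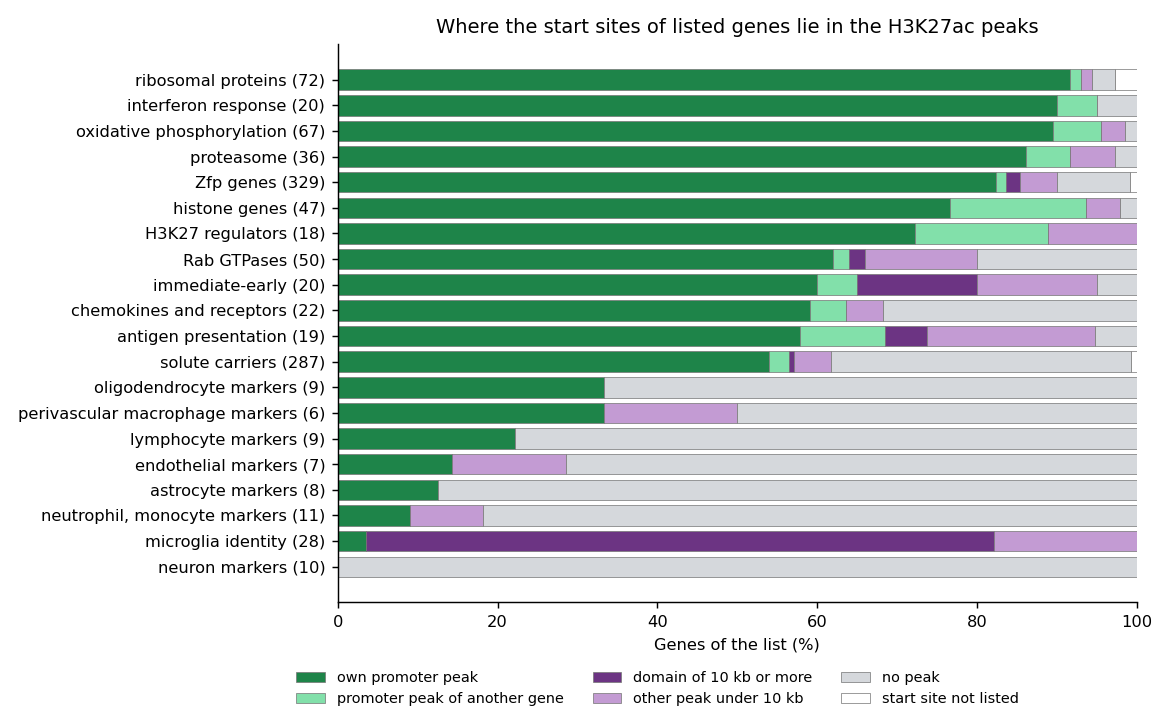
Share of the genes of each list (number of genes in brackets) by the kind of H3K27ac peak that holds their start site, as stacked bars from 0 to 100%. Ribosomal protein genes had their own promoter peak in 91.7% of cases and microglia identity genes in 3.57%, most of the latter lying in domains of 10 kb or more.

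The 10 promoter peaks with the highest level per kb lay at genes of different functions. *Brd2* came first, with 29.9, 45.5, 44.0 and 44.9 CPM per kb in the WT female, WT male, KO female and KO male pools, over a peak of 9395 bp (chr17:34116561-34125955). *Clic1*, a chloride channel gene, followed with 27.2, 48.0, 45.8 and 41.1 CPM per kb, and *Fermt3*, which encodes the integrin activator kindlin of blood cells, had 29.3, 46.9, 45.0 and 40.7 CPM per kb. In each of these 3 the WT female pool was lowest, and the WT male pool lay within or above the KO pools.

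The next were *Fgd3*, *Rffl*, *Slc43a2*, *Psmb9*, *Jun*, *Grn* and *Sh3bp1*, with mean levels of 39.8, 37.8, 37.3, 37.2, 37.1, 37.1 and 36.9 CPM per kb. *Grn*, the gene of the lysosomal protein progranulin, had 30.0, 39.2, 42.4 and 36.8 CPM per kb. *Jun*, an AP-1 subunit induced within minutes of a stimulus, had 29.6, 36.8, 39.2 and 42.8 CPM per kb. *Psmb9*, a subunit of the immunoproteasome, had 27.2 and 31.1 CPM per kb in WT and 37.7 and 52.9 CPM per kb in KO. *Rffl*, a ubiquitin ligase gene, was the most even of these 10, with 40.6, 38.5, 36.3 and 35.8 CPM per kb.

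Within the gene lists, levels per kb differed several-fold between members. Ribosomal protein genes had a median promoter level of 15.6 CPM per kb (range 5.86 to 29.0), oxidative phosphorylation genes 12.9 (3.38 to 23.96) and Zfp genes 10.998 (1.92 to 33.5). The 7 housekeeping genes had 27.9 CPM per kb (15.2 to 32.1), with the elongation factor gene *Eef1a1* highest at 28.5, 29.8, 38.5 and 31.4 CPM per kb in the 4 pools. Among antigen presentation genes the median was 18.9 CPM per kb, from *Psmb9* down to the class II gene *H2-Aa* at 2.51, 2.27, 4.46 and 3.19 CPM per kb. The low *H2-Aa* values lay near the 5th percentile of all promoter peaks.

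Chemokine and receptor genes had a median of 10.1 CPM per kb. The ligand genes *Ccl12* (26.0 CPM per kb), *Ccl3* (16.8) and *Ccl9* (16.1) had the highest mean levels. The receptor genes *Ccr1*, *Cxcr2*, *Cxcr6* and *Ccr1l1* and the ligand genes *Ccl7* and *Cxcl10* lay below 5 CPM per kb, and the receptor gene *Ccrl2* had 10.6. The peak at *Ccr1* had 12, 0, 41 and 33 reads in the libraries of WT female, WT male, KO female and KO male pools, the peak at *Cxcr2* 14, 0, 36 and 9 reads, and the larger of the peaks at *Ccr1l1* 0, 19, 42 and 21 reads. Interferon response genes had a median of 9.99 CPM per kb.

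Among genes for regulators of the mark, *Ep300*, the gene of the acetyltransferase p300, had 20.9, 29.1, 25.2 and 21.1 CPM per kb. *Eed*, a subunit of the repressive complex that methylates the same lysine, had 26.3, 24.5, 23.3 and 24.9 CPM per kb, and *Ezh2*, its catalytic subunit, 10.0, 9.04, 13.9 and 13.3 CPM per kb. Of immediate-early genes, *Dusp1*, a phosphatase of MAP kinases, had 15.9, 27.8, 33.7 and 29.8 CPM per kb, and *Fos*, the partner of *Jun* in AP-1, 8.68, 8.15, 11.8 and 16.8 CPM per kb.

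Polymerase was found at most promoter peaks. A peak of Rpb2 overlapped 6693 of the 9286 promoter peaks (72.1%) by at least 1 bp, against 12.6% of intronic, 10.1% of intergenic and 97.7% of the wide domains. Among peaks of 1000 to 2000 bp alone, the shares were 76.9% at promoters, 11.3% in introns and 14.1% between genes. The overlap was higher at higher levels. In 5 equal groups of promoter peaks ordered from low to high H3K27ac level, it was 19.9%, 65.3%, 86.6%, 92.7% and 95.9%, while the median width grew from 654.5 to 2623 bp. It was 85.0% for promoter peaks in both lists, 32.3% for those in the KO list alone, and 2.06% (9 of 436) for those in the WT list alone. Across the 6693 overlapping pairs, H3K27ac reads and Rpb2 reads had a Spearman correlation of 0.611 (WT female), 0.616 (WT male), 0.651 (KO female) and 0.670 (KO male). These are correlations across peaks that share width and library depth, given as a description. The WT female value rests on the Rpb2 library so labelled, which held reads at Y-linked genes.

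Promoters with and without a peak differed in sequence. Of 17492 RefSeq promoters of 300 bases (250 before to 50 after the start site), the 7584 under a promoter peak had a median ratio of observed to expected CpG of 0.798, the 254 under a wide domain 0.694, and the 8802 under no peak 0.247. A ratio over 0.6 was found in 79.2% of those under a promoter peak, 61.8% under a domain, 19.6% under no peak and 48.5% of all promoters. Promoters under other peaks of less than 10 kb had a CpG ratio over 0.6 in 70.7% and an SP1 box in 69.6%. An SP1 box was found in 67.1% under a promoter peak, 65.7% under a domain and 46.6% of all, an ETS site in 21.8% and 12.1%, an NRF1 core in 7.82% and 4.54%, and a TATA box in 6.13% and 13.2%. The SP1 box and the ETS site themselves contain CpG, so their shares move with the CpG content.

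The PU.1 letters were not more frequent under promoter peaks, at 12.8% against 13.6% of all promoters, and 20.9% under wide domains. Among the 19 microglia identity promoters in the table, 36.8% held them. The lowest of the 5 level groups had the fewest CpG-rich promoters and ETS sites. From low to high, the share with a CpG ratio over 0.6 was 64.1%, 75.2%, 81.8%, 83.5% and 83.7%, and the share with an ETS site was 10.8%, 19.4%, 23.1%, 26.9% and 23.3%. The SP1 box was found in 62.8% of the lowest and 68.9% of the highest group. A match to such short letters is a description of the sequence and not a measured binding site.

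**Figure D3:**
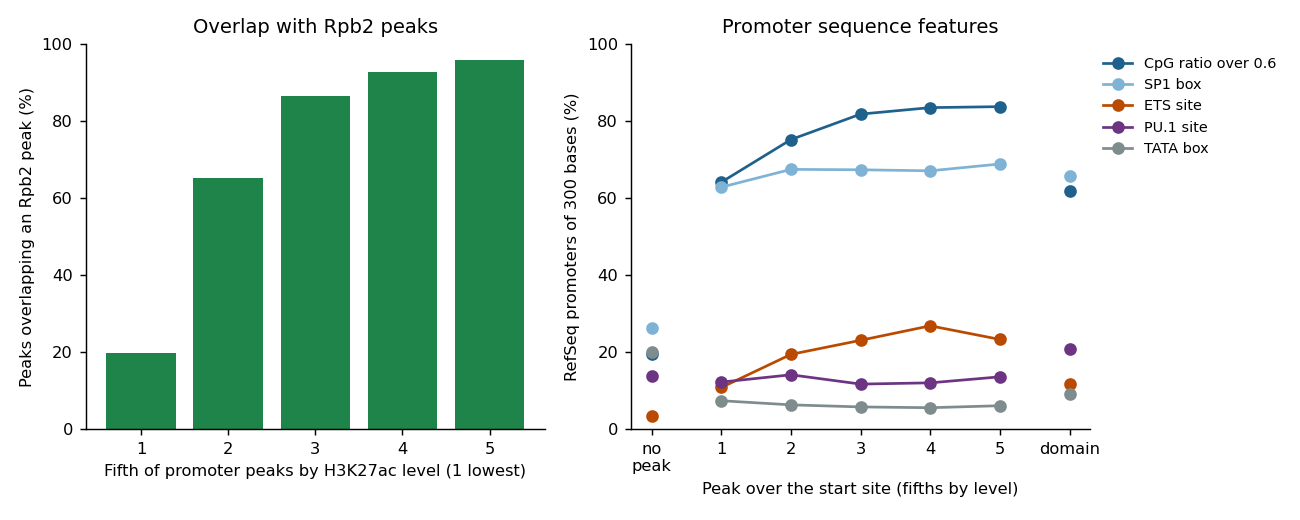
Left, percentage of promoter peaks that overlap an Rpb2 peak, in 5 equal groups of promoter peaks by H3K27ac level, as bars from 0. Right, percentage of RefSeq promoters of 300 bases with each sequence feature, for promoters under no peak, under a promoter peak of each group, and under a domain of 10 kb or more. Rpb2 overlap went from 19.9% to 95.9%, and CpG-rich promoters from 64.1% to 83.7%, between the lowest and the highest group.

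In the H3K27ac libraries, the promoters of sex-linked genes carried the labels of the pools. The 4 Y-linked genes *Ddx3y*, *Eif2s3y*, *Kdm5d* and *Uty* had 0 reads in the WT and KO female libraries, where a count of 0 allows up to 0.848 and 0.228 CPM (3 reads), and their summed level in the male pools was 44.9 CPM for WT and 52.7 CPM for KO. Their X-linked partners *Ddx3x*, *Eif2s3x*, *Kdm5c* and *Kdm6a*, which are known to escape X inactivation, summed to 272 and 205 CPM in the WT and KO female pools and to 151 and 168 CPM in the male pools. *Kdm6a*, a demethylase of H3K27, had 121 and 81.1 CPM in the females and 44.8 and 63.7 CPM in the males. At *Kdm5c* the KO female pool, at 19.9 CPM, was below the KO male pool, at 23.04 CPM. Intervals of counts of 0 cover counting error alone. The Rpb2 libraries did not bear out the labels in the same way. At the *Ddx3y* promoter peak, Rpb2 had 62 reads in the library labelled WT female, 112 in WT male, 0 in KO female and 87 in KO male. At *Eif2s3y* these counts were 25, 73, 0 and 116. The source of the Y-linked reads in the Rpb2 library labelled WT female was not tested.

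Loss of *Cx3cr1* was compared with WT at the promoter peaks to ask whether the acetylation of gene starts differed between the genotypes. No promoter peak passed an adjusted p of 0.05 in the quasi-likelihood test of edgeR, adjusted by Benjamini-Hochberg across the 55798 peaks tested (0 of 9285 tested, lowest adjusted p = 0.425). Of all tested peaks 0.0233% passed, 0.00538% higher and 0.0179% lower in KO. At an unadjusted p under 0.05 there were 326 promoter peaks (3.51%), against 4.95% of all tested peaks. Of these, 203 were higher in KO (2.19% against 1.35%) and 123 lower (1.32% against 3.6%). The 2 KO pools did not overlap the 2 WT pools in 3012 promoter peaks (32.4% against 27.4% of all peaks), 1889 of them higher in KO (20.3% against 14.3%) and 1123 lower (12.1% against 13%).

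The median log2 fold change over promoter peaks was 0.05, and the median over all tested peaks was -0.21. With at least 10 reads required in every sample, these medians were -0.007 (7997 promoter peaks) and -0.0015. The contrast between promoter peaks and all peaks was thus not seen under that filter. The dispersion of promoter peaks between pools was 0.138, against 1.48 for intronic and 2.07 for intergenic peaks. For the promoter peaks in both lists it was 0.0713, and without the WT female library it was 0.0711 over the promoter peaks. Paired libraries had log-scale correlations at promoter peaks of 0.80 (WT female and WT male) to 0.925 (KO female and KO male). Which direction held the larger share of the low unadjusted p-values depended on the filter and the scaling. With TMM and at least 10 reads in every sample, 41.6% were higher in KO. Under the reported filter it was 62.3% higher in KO with TMM, 43.3% with DESeq2 size factors and 81.8% with scaling to library totals. Scaling to library totals moved the median of all peaks from -0.21 to 0.53 on the log2 scale.

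**Figure D4:**
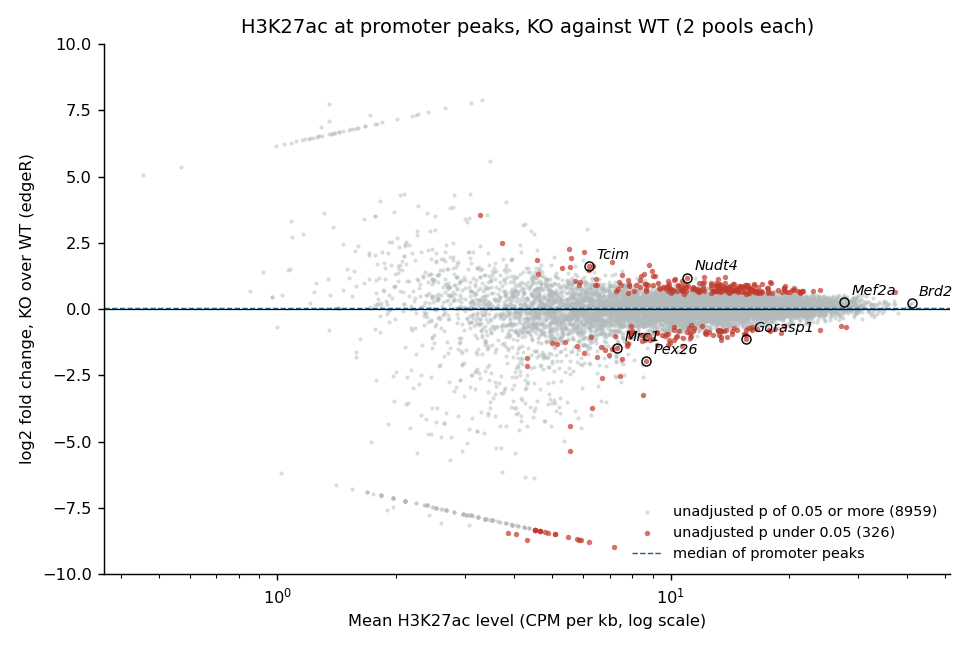
Log2 fold change of H3K27ac, KO over WT (edgeR, 2 pools each), against the mean level of each tested promoter peak (CPM per kb, log axis). Red points have an unadjusted p under 0.05 (326 of 9285), open circles mark peaks named in the text, and the slanted lines of points at both extremes are peaks with no read in one genotype, whose fold change depends on the prior count.

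Among promoter peaks higher in both KO pools, *Nudt4* had the lowest p. Its values were 23.7 and 22.7 CPM in the WT female and male pools and 39.2 and 66.2 CPM in the KO pools, or 1.18 ± 0.32 on the log2 scale (SE of the fit, adjusted p = 0.425). *Tcim*, a small regulator gene of transcription, had 10.5 and 5.59 CPM in WT and 21.9 and 26.3 CPM in KO (log2 fold change 1.61 ± 0.44, adjusted p = 0.506). *Homer1*, a scaffold of postsynaptic receptors, had 13.6 and 20.3 CPM in WT and 38.2 and 40.2 CPM in KO (1.20 ± 0.34). These groups did not overlap, and none of the 3 passed the adjusted threshold.

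*Jagn1*, a gene of the secretory pathway needed by neutrophils, had 12.997 and 2.24 CPM in WT and 21.7 and 23.4 CPM in KO, so the WT pools differed from each other by more than the WT female differed from either KO pool. *Rps27a*, which encodes a fusion of ubiquitin and a ribosomal protein, had 39.8 and 32.8 CPM in WT and 66.8 and 76.9 CPM in KO (log2 fold change 0.99 ± 0.30). The other 5 of the 10 were *Plpbp*, *Ccnl2*, *E130308A19Rik*, *Itpka* and *Larp7*, with log2 fold changes of 1.20, 1.005, 1.91, 1.30 and 0.97. Their adjusted p lay between 0.643 and 0.768. The *Larp7* and *Rps27a* peaks each covered the start sites of 2 genes, as did those of *Brd2*, *Clic1*, *Sh3bp1* and *Psmb9* above, and reads of such neighbours cannot be told apart.

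Among promoter peaks lower in both KO pools, *Pex26* had 18.4 and 16.5 CPM in WT and 6.08 and 2.81 CPM in KO (log2 fold change -1.96 ± 0.56, adjusted p = 0.563). *Gorasp1*, a Golgi stacking protein gene, had 48.3 and 32.1 CPM in WT and 21.96 and 14.2 CPM in KO (-1.15 ± 0.33, adjusted p = 0.610), over a peak that also covered the start site of a second gene. *Gorasp1* lies on chromosome 9, as does *Cx3cr1*, at chr9:119936603-119938472. *Smad4*, a mediator of TGF-beta signals, had 28.3 and 22.5 CPM in WT and 11.3 and 11.1 CPM in KO (-1.18 ± 0.41). The groups did not overlap in any of these, and none passed the adjusted threshold.

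*Mrc1*, the mannose receptor gene and a marker of perivascular macrophages, had 15.3 and 20.8 CPM in WT and 8.97 and 4.01 CPM in KO (log2 fold change -1.47 ± 0.51, adjusted p = 0.779). The other perivascular macrophage gene with a promoter peak, *Pf4*, had 12, 0, 29 and 6 reads in the 4 libraries. The summed level of both peaks was 18.6 and 20.8 CPM in WT and 11.2 and 4.50 CPM in KO. The sort gate was CD11b+CD45lo, and these macrophages are known for higher CD45 than microglia. Their part in the *Mrc1* values was not tested, and fewer such cells and less acetylation per cell cannot be told apart in pooled samples. In *Catip*, *Erlec1*, *Nadsyn1* and *Cdkn2b* the WT female pool stood well above the WT male pool, with 28.0 against 13.1, 37.0 against 13.3, 40.4 against 17.6 and 26.0 against 11.7 CPM. The KO pools of these 4 genes lay between 5.62 and 14.1 CPM. The *Erlec1* and *Nadsyn1* peaks also covered the start sites of 2 genes. *Dtd1* and *Zfp871* completed the 10, with log2 fold changes of -1.38 and -0.93.

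**Figure D5:**
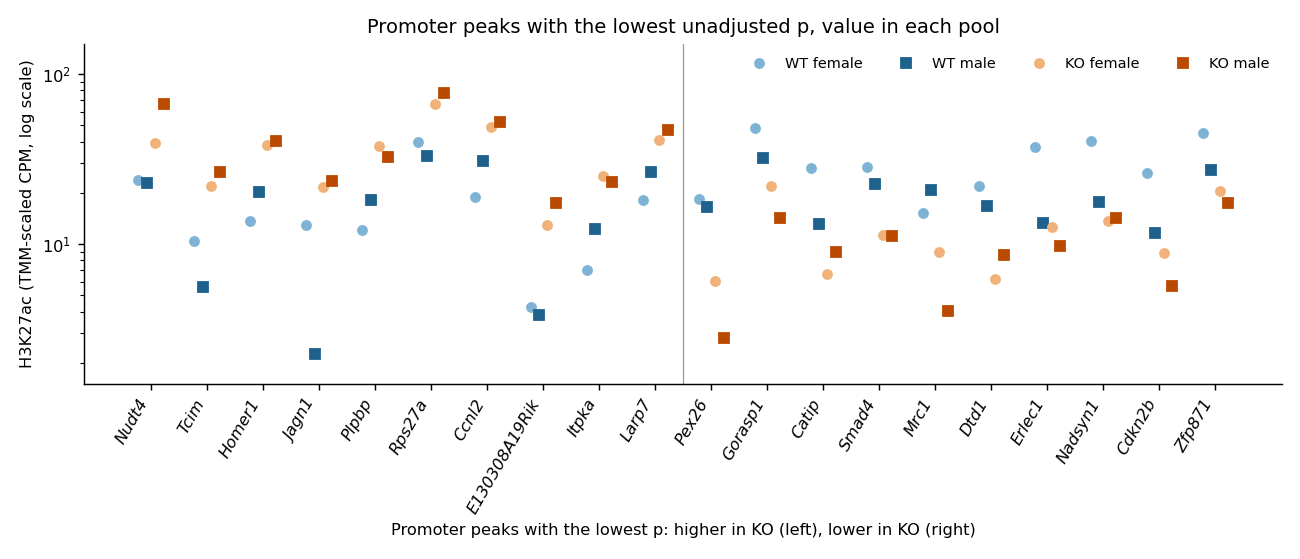
H3K27ac in TMM-scaled CPM (log axis) in each of the 4 pools, for the 10 promoter peaks of lowest unadjusted p with both KO pools above both WT pools (left) and the 10 with both below (right). The peaks were chosen for this separation, which is therefore a description. The WT female and male pools differ most at *Jagn1*, *Erlec1* and *Nadsyn1*.

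Rpb2 was not used to choose these 20 peaks and gives a second readout at them. The Rpb2 library labelled WT female, which held reads at Y-linked genes, is taken here as labelled. Among the 10 peaks with higher H3K27ac in KO, Rpb2 values, as CPM of its library total, did not overlap between the genotypes in 3 peaks higher in KO (*Tcim*, *Homer1* and *Itpka*) and 1 lower (*Larp7*), and they overlapped in 6. At *Homer1*, Rpb2 had 4.72 and 7.03 CPM in WT and 7.85 and 11.9 in KO. At *Nudt4*, it had 3.26 and 3.15 in WT and 1.94 and 3.69 in KO, with overlapping groups. Among the 10 peaks with lower H3K27ac in KO, 7 had an Rpb2 peak, and Rpb2 was lower in both KO pools at 1 (*Erlec1*) and higher in both at 2 (*Pex26* and *Zfp871*). Over all 6693 promoter peaks with an Rpb2 peak, 29.8% were higher and 11.7% lower in both KO pools on this scale. Against this background stand 3 higher and 1 lower of the 10 peaks with higher H3K27ac, and 2 higher and 1 lower of the 7 with lower H3K27ac and an Rpb2 peak.

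None of the 25 gene lists held a promoter peak past the adjusted threshold in this edgeR test. At an unadjusted p under 0.05, 6 of 155 solute carrier peaks were higher in KO and 0 lower, 3 of 271 Zfp peaks were higher and 5 lower, 3 of 60 oxidative phosphorylation peaks higher and 1 lower, and 2 of 66 ribosomal protein peaks higher and 2 lower. Over all promoter peaks 2.19% were higher and 1.32% lower by this measure. Immediate-early genes had 0.46 as the median log2 fold change of 12 peaks, 2 with an unadjusted p under 0.05 (*Fos* and *Klf2*), and 8 of the 12 with both KO pools above both WT pools and 0 with both below, where the shares over all promoter peaks were 20.3% and 12.1%. *Fos* had 25.7 and 24.1 CPM in WT and 34.8 and 49.8 CPM in KO (0.76 ± 0.32, adjusted p = 0.811), and *Klf2* had 23.5 and 27.2 CPM in WT and 51.6 and 29.8 CPM in KO (0.68 ± 0.32). The median of the list was 0.29 without the WT female and 0.47 without the WT male library.

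Among the other lists with at least 7 promoter peaks, medians lay nearer to the promoter median of 0.05. Lists with 1 to 4 peaks ranged from -0.90 (perivascular macrophage genes, 2 peaks) to 0.66 (the smaller study set below, 3 peaks), with 0.64 for the neutrophil and monocyte peak at *Plac8* and 0.48 for the 4 Y-linked genes. Without the WT female library the perivascular macrophage median was 2.58 and the Y-linked median -0.50, so that both changed sign. The first change came from *Pf4*, which had no read in the WT male library, so that its fold change then depended on the prior count. *Mrc1* was lower in KO in every fit that left out a library, at -2.17 to -1.005. It was chosen for KO pools that lay wholly below the WT pools, so leaving out a library could hardly change its direction. That result is no sign of stability. The Y-linked genes had no read in either female library, so their fold changes do not measure a genotype difference. The median log2 fold change was 0.05 over 66 ribosomal protein genes, -0.02 over 60 oxidative phosphorylation genes, 0.13 over 31 proteasome genes, 0.00 over 271 Zfp genes, 0.06 over 155 solute carrier genes, 0.08 over 31 Rab genes, 0.17 over 36 histone genes, 0.22 over 18 interferon response genes, 0.07 over 11 antigen presentation genes, 0.13 over 7 housekeeping genes and -0.11 over 13 regulators of H3K27 marks. Chemokines and their receptors had a median of 0.38 over 13 peaks, with 2 of the 13 higher in both KO pools and 0 lower, against 20.3% and 12.1% of all promoter peaks. That value was -0.02 without the WT female and 0.77 without the WT male library.

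Members of the lists with low unadjusted p lay on both sides. *Ndufb6*, a subunit of complex I, had 15.0 and 21.9 CPM in WT and 39.4 and 25.9 CPM in KO, and *Ndufb2*, another subunit, had 32.8 and 35.5 CPM in WT and 22.9 and 16.2 CPM in KO. *Psmb9* had 57.9 and 66.3 CPM in WT and 80.4 and 113 CPM in KO. *Pgk1*, a glycolytic enzyme gene on the X chromosome, had 59.9, 60.7 and 57.1 CPM in the WT female, WT male and KO male pools and 18.7 CPM in the KO female pool, so that 1 pool set its low p. All had an adjusted p of 0.811.

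Of 25 genes that the study discussed for their RNA in young KO mice, 10 had a promoter peak by the rule. In one set of 20 these were *H2-Aa*, *Cxcr2*, *Ccr1*, *Ccl9*, *Ctsa*, *Fcrl1* and *Lyz2*, with a median log2 fold change of 0.04 and none at an unadjusted p under 0.05. *Ctsa*, the gene of the lysosomal protease cathepsin A, had 145 and 135 CPM in WT and 139 and 134 CPM in KO, and *Ccl9* had 30.8 and 77.0 CPM in WT and 56.4 and 55.3 CPM in KO. In the other set of 5 these were *Tnf*, *Klf2* and *Ccr1l1*, with a median of 0.66, which was 0.21 without the WT female and 0.80 without the WT male library. The median was the value of *Ccr1l1* (0.66 ± 3.44, SE), a peak of few reads. *Tnf*, a cytokine gene, had 47.5 and 61.4 CPM in WT and 60.8 and 81.5 CPM in KO. The sets were chosen by the study. The groups overlapped at *Ctsa*, *Ccl9* and *Tnf*, and both KO pools lay above both WT pools at *Klf2* and at *H2-Aa*, with 4.24 and 3.84 CPM in WT and 7.52 and 5.38 CPM in KO.

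Promoters around the disrupted gene were looked at apart. Within 10 Mb of *Cx3cr1* there were 79 promoter peaks. Their pools did not overlap in 26.6%, against 32.4% of all promoter peaks, and their median log2 fold change was 0.04. Of the 79, 3 had an unadjusted p under 0.05, where the share over all promoter peaks was 3.51%, and the lowest adjusted p was 0.610, at *Gorasp1*.

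The count of called promoter peaks depended on the WT pools and on the tool. DESeq2 called 11 promoter peaks (0.118% against 0.43% of all tested peaks), 6 higher in KO (0.0573% of all) and 5 lower (0.373% of all). The 6 were *Rps27a*, *Plpbp*, *Smagp*, *Homer1*, *E130308A19Rik* and *Tcim*, and the 5 were *Smad4*, *Pex26*, *Col6a3*, *D030056L22Rik* and *Igfbp6*, named after their values were seen. *Igfbp6* had 37 and 8 reads in the WT libraries and 0 in both KO libraries, and *D030056L22Rik* had 36, 23, 4 and 0 reads. All 11 kept their direction in every fit that left out a library. At all 11 the KO pools lay wholly above or below the WT pools, so leaving out a library could hardly change the direction. That result is therefore no sign of stability.

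Without the WT female library, edgeR called 114 promoter peaks (1.25% against 1.53% of all tested peaks), 98 higher in KO (0.721% of all) and 16 lower (0.809% of all). Without the WT male library it called 711 (7.67% against 14.8%), 427 higher (4.92% of all) and 284 lower (9.87% of all). In both cases a lone WT pool was compared and was assumed to vary like the KO pools. The 2 sets shared 8 peaks, which is 7.02% of the 114 and 1.13% of the 711, and 5 of the 8 had the same sign. Without the KO female or without the KO male library no promoter peak was called. The median log2 fold change over promoter peaks was 0.17 without the WT female and -0.04 without the WT male library.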

How the data were processed

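H3K27ac and Rpb2 ChIP-seq were measured in microglia pools (12 samples, of which 4 inputs were not used here). Per the labels and the study's methods, the authors aligned single-end reads of 51 bases with Bowtie2 to mm10, kept unique alignments, called peaks with HOMER, compared replicates by IDR, joined the lists of both genotypes and deposited raw read counts per peak with HOMER annotation. The counts were used as deposited.

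Peaks whose mean in either genotype reached 4 reads were fitted in edgeR 4.0.16 (R 4.3.3) with TMM scaling, a quasi-likelihood test of genotype over all 55798 such H3K27ac peaks and Benjamini-Hochberg adjustment. DESeq2 1.42.0 and limma 3.58.1 gave alternatives, and the scripts were tested on simulated data. Gene start sites came from GENCODE M21 (mm10) and promoter sequences from RefSeq (GRCm38.p6), which matched 81.6% of the promoter peaks by gene. Named peaks were the 10 of lowest p with non-overlapping pools in each direction, the 10 of highest level, up to 3 of highest level and 2 of lowest p in each gene list, and all members of the sex-linked and study lists. The members and lists were chosen with earlier results of these data known. The female minus male difference had a correlation of 0.027 between the genotypes over promoter peaks, and sex entered as an alternative and not in the test. The WT female library, with 15.9% of its reads in peaks, is part of that value. The correlation therefore cannot show whether pools of a sex deviate together. With a single pool per sex in each genotype, the spread between pools includes any difference between the sexes. Some of the named peaks are not reported here.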

Additional observations from a re-analysis of the deposited data

Results flagged for a closer look

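The median log2 ratio of KO over WT across all promoter peaks had opposite signs in the sexes. It was -0.011 between the female pools and 0.117 between the male pools, with 4539 and 5423 of the 9286 promoter peaks higher in KO. Each sex had 1 pool per genotype, so the difference was not tested, and the female value rests on the WT female library with 15.9% of its reads in peaks.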

How the results depend on the processing

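Besides the fit reported, 19 alternatives planned and 3 chosen after seeing the data were run. The count of called promoter peaks was 0 in all but 4 of them. It was 11 with DESeq2 and, added after seeing the data, 125 with DESeq2 without the WT female library, of which 105 were among the 114 of edgeR. Leaving out 1 pool at a time gave 0 to 711 calls and medians of -0.04 to 0.17. With promoter peaks alone in the fit and the WT female left out, 0 were called and 1260 had an unadjusted p under 0.05. The median log2 fold change moved by more than the spread between pools in 1 setting, to 0.80 when scaled to library totals. There the values of *Rab29* and *Rps20* changed sign, from -0.74 and -0.92 to 0.14 and 0.059. With sex as a replicate block, 0 were called, 292 had an unadjusted p under 0.05 and the median was 0.08. The block changed no call. Of 36 named peaks followed through the refitted settings, 51 values passed the threshold where the reported fit did not and 629 kept direction and side. Overlap with Rpb2 was 71.8% when at least 100 bp were required. The cause of the calls without a WT pool was not tested. Depth limited peaks of few reads, where 3 reads equal 0.848 CPM in the WT female library.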
